A study of Mus musculus with 8 samples.

Results

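Cardiolipin synthesis and transfer genes were examined in the cochlear RNA seq data: *Prelid1*, *Triap1*, *Tamm41*, *Pgs1*, *Ptpmt1*, *Crls1*, *Lclat1* and *Pld6*. These 8 genes were chosen by symbol for their role in making or moving cardiolipin, the lipid that OPA1 binds, and they are 8 of the 47628 named entries in the count tables. Whole cochleae of 8 untreated mice, all 21 days old, had been sequenced: 4 were WT, with the animal numbers 4, 5, 6 and 8, and 4 were *Opa1*+/-, of which 2 had the animal numbers 2 and 7 and 2 had numbers of 3 digits. Values are given in that order throughout, the 3-digit numbers from low to high. *Opa1*+/- mice carry 1 knock-in allele with the human *OPA1* delTTAG mutation in every cell, on a mixed background of C57BL/6J and 129Sv/Pas, and the WT mice were littermate controls without it. Homozygotes die before birth, so the comparison is between no mutant copy and 1 mutant copy. The study used both sexes, and the labels give neither the sex of each mouse nor which of the 2 RNA extraction methods they mention was used for it. In a whole cochlea, fewer cells of a type and less RNA per cell cannot be told apart.

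Cardiolipin is a phospholipid with 4 acyl chains that is found almost only in the inner mitochondrial membrane. Phosphatidic acid reaches that membrane through PRELID1, a carrier that works in a complex with TRIAP1. There TAMM41 makes CDP-diacylglycerol, PGS1 joins it to glycerol 3-phosphate, PTPMT1 removes the phosphate to give phosphatidylglycerol, and CRLS1 condenses that with another CDP-diacylglycerol to form cardiolipin. LCLAT1 is an acyltransferase that can re-acylate lysocardiolipin, and PLD6 is a phospholipase of the outer mitochondrial membrane that acts on cardiolipin. OPA1, the dynamin-like GTPase of the inner membrane, binds cardiolipin during membrane fusion and shapes the cristae.

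Each WT library held 17001431 to 20828030 counts on named genes, and each *Opa1*+/- library 15978051 to 20204154. Levels are given as CPM (TMM-normalized counts scaled to a common library size), and genes with a mean normalized count over 10 were tested with edgeR's quasi-likelihood test, 19366 in all. *Opa1* itself ranged from 111.7 to 125.9 CPM in WT and from 60.4 to 70.0 CPM in *Opa1*+/-, with a log2 fold change of -0.87 (95% interval -1.02 to -0.72, edgeR adjusted p = 0.00515), in the direction of the labels. The fold change stayed between -0.90 and -0.83 with any 1 mouse left out, but the adjusted p rose to 0.0704 without *Opa1*+/- mouse 2, and to 0.260 (log2 fold change -0.86) without both *Opa1*+/- mice that have 3-digit numbers. All 6 marker genes of hair cells, all 6 of spiral ganglion neurons and all 6 of the stria vascularis were detected in every mouse. Summed levels of genes of other cell types varied between mice, from 358.2 to 1201 CPM for neutrophil and bone marrow genes and from 166.2 to 1578 CPM for skeletal muscle genes. Erythroid genes summed to 7733 to 21394 CPM in WT and 15018 to 25011 CPM in *Opa1*+/-, with 3 of the 4 WT mice below every *Opa1*+/- mouse.

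Of the 8 cardiolipin genes, 7 were tested and 0 passed an adjusted p of 0.05 in edgeR, against 5 of all 19366 genes tested (0.0258%). DESeq2's Wald test also called 0 of the 7, against 23 of all genes (0.119%). At an unadjusted edgeR p under 0.05 there was 1 of the 7, *Ptpmt1*, beside 1302 genes in all (6.72%). In 1 of the 7, again *Ptpmt1*, the *Opa1*+/- values were all above the highest WT value, an arrangement found for 383 genes (1.98%). In 0 of the 7 were they all below the lowest WT value, as they were for 452 genes (2.33%). The fitted log2 fold change of *Opa1*+/- against WT was above 0 for 5 genes and below 0 for 2, with a median of 0.015, while the median over all genes tested was 3.95e-04 (9709 above 0 and 9657 below). Scaled by total counts alone, 3 were above 0 and 4 below, with a median of -0.013 beside -0.028 over all genes. The 95% intervals of the 7 genes lay between -0.26 and 0.50, so none reached the fall measured for *Opa1*.

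**Figure D1:**
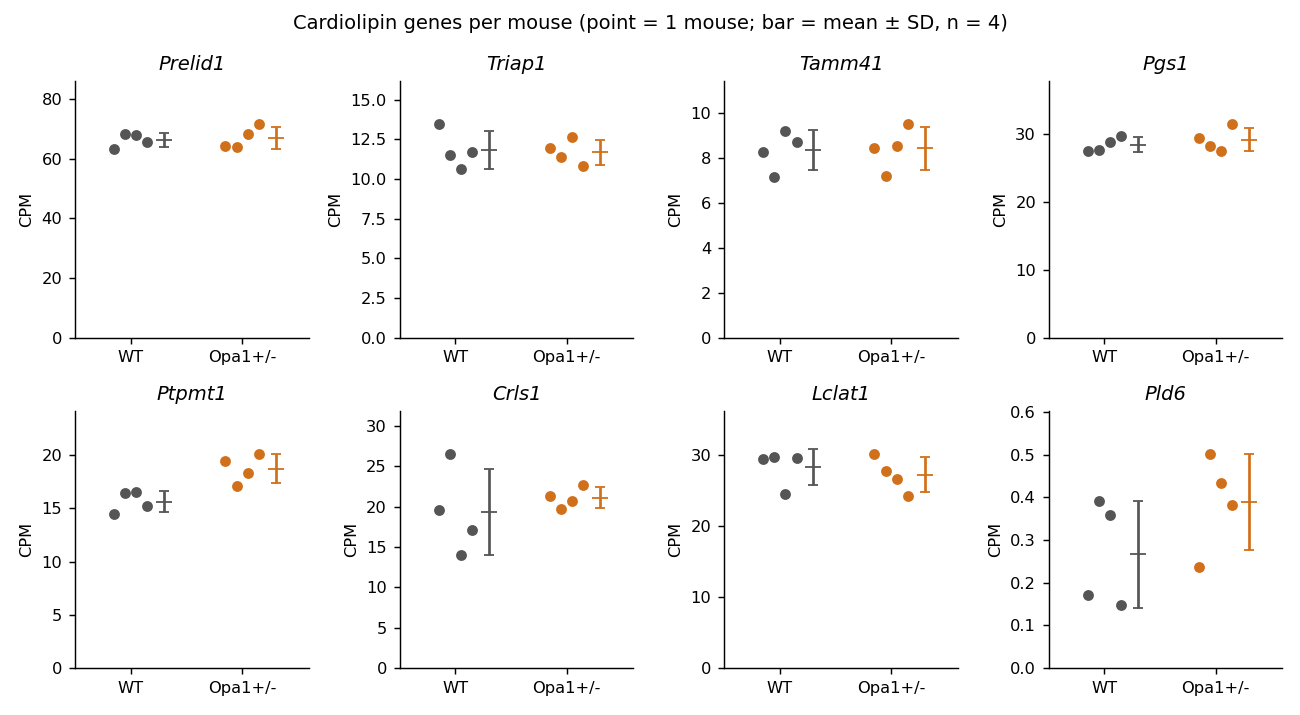
CPM of the 8 cardiolipin genes in WT (grey) and *Opa1*+/- mice (orange), each panel with its own axis from 0, where each point is 1 mouse and the bar beside the points is the mean ± SD (n = 4). The groups are apart only for *Ptpmt1*, the 4 WT points of *Crls1* spread from 14.0 to 26.5 CPM, and *Pld6* stays at or below 0.50 CPM.

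The carrier complex came first in the pathway, and the means of its genes differed between genotypes by less than the spread between mice. *Prelid1* had 63.2, 68.4, 68.1 and 65.6 CPM in WT mice 4, 5, 6 and 8, and 64.3, 63.9, 68.2 and 71.7 CPM in the *Opa1*+/- mice. The groups overlapped, with means of 66.3 ± 2.43 and 67.0 ± 3.69 CPM (SD, n = 4 each), and the log2 fold change was 0.015 (SE 0.0581, edgeR adjusted p = 0.968). Its 95% interval, in percent of the WT level, ran from -7.66% to 10.6%, the narrowest of the 7 genes. With 1087 to 1400 counts per mouse, counting alone gives *Prelid1* a coefficient of variation of 2.85% in WT, and 3.67% was observed.

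*Prelid1* (ENSMUSG00000021486.7) lies on the plus strand of GRCm38 at chr13:55320500-55325272, with 2 transcripts in GENCODE vM21. Of its 2726 exonic bases, 1258 (46.1%) are shared with exons of *Rab24* on the opposite strand, and 105 (3.85%) with exons of *Mxd3*. Whether reads were counted by strand is not given in the sources used here, so reads of these genes in the shared bases cannot be told apart. *Rab24*, a small GTPase, had 20.0 ± 1.26 CPM in the WT mice, against 22.0 ± 1.82 CPM in the *Opa1*+/- mice (log2 fold change 0.14, edgeR adjusted p = 0.766).

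A short stretch before the *Prelid1* start is shown because this gene had the highest level per exon length of the 8 and its window alone held the motif CCGGAAG, the core bound by ETS factors such as GABP. The RefSeq window before the start (GRCm38.p6, plus strand, chr13:55321805-55322054) falls inside an exon of the longer GENCODE transcript, and only the 22 bases from the E-box CACGTG to the first CCGGAAG (chr13:55321973-55321994) are printed, 5′ to 3′, with both motifs in capitals.
*Prelid1*: CACGTGacgcgggcgCCGGAAG
In the whole window CCGGAAG begins at bases 184 and 214 and the E-box at base 169, counted from its 5′ end, and 142 of its 250 bases lie within *Rab24*. Windows of 250 bases were found for 7 of the 8 genes, 9 windows in all, and both strands were searched for each motif. CCGGAAG occurs in 6.91% of all 32851 RefSeq windows of that length, and CACGTG in 6.02%. The NRF1 motif GCGCATGC occurs in 2.26% of all windows and in 0 of the 9. CACGTG was also in the windows of *Crls1* and *Pld6*.

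*Triap1*, which encodes the partner of PRELID1, had 13.5, 11.5, 10.6 and 11.7 CPM in the WT mice and 11.9, 11.4, 12.6 and 10.8 CPM in the *Opa1*+/- mice, in the same order of animals. All 4 *Opa1*+/- values fell within the WT range, with means of 11.8 ± 1.19 and 11.7 ± 0.786 CPM (SD, n = 4 each). The log2 fold change was -0.018 (SE 0.0989, 95% interval -0.24 to 0.20, edgeR adjusted p = 0.977), from 169 to 239 counts per mouse. *Triap1* (ENSMUSG00000029535.4, chr5:115341225-115343569, plus strand, 1 transcript of 1088 exonic bases) starts 46 bases from *Gatc*, which is read from the opposite strand. *Gatc*, a subunit of the mitochondrial glutamyl-tRNA amidotransferase, had a log2 fold change of -0.0042 (edgeR adjusted p = 0.995).

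Since the 2 proteins act together, the levels of their genes were compared across the 8 mice, the only correlation computed. With log2 CPM (prior count 2), Pearson's r was -0.58 (exact permutation p = 0.133, two-sided) and Spearman's rho was -0.45 (exact permutation p = 0.267). Without the 2 mice farthest from the median of *Prelid1*, which also narrows its range, r was -0.052 (exact permutation p = 0.917) and rho was 0.14 (exact permutation p = 0.803). Within genotypes, r was -0.90 over the 4 WT mice and -0.34 over the 4 *Opa1*+/- mice, given as a description without a test. The correlation over the 8 mice did not pass a p of 0.05. With 1 mouse left out at a time r stayed below 0, between -0.73 and -0.37, the latter without WT mouse 4, and it was -0.12 when levels were scaled by total counts alone.

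For the first 2 enzymes of synthesis, too, the difference between the means was smaller than the SD within either genotype. *Tamm41* had 8.28, 7.13, 9.20 and 8.71 CPM in the WT mice, against 8.46, 7.17, 8.54 and 9.51 CPM in the *Opa1*+/- mice. Both groups covered almost the same range, at 8.33 ± 0.885 and 8.42 ± 0.961 CPM (SD, n = 4 each). The log2 fold change was 0.014 (SE 0.123, edgeR adjusted p = 0.986), and the 95% interval from -0.26 to 0.29 rests on 138 to 178 counts per mouse. *Tamm41* (ENSMUSG00000030316.13) is on the minus strand at chr6:115004381-115037876, with 8 transcripts and 5276 exonic bases.

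*Pgs1*, the enzyme of the committed step, had 27.5, 27.7, 28.9 and 29.8 CPM in the WT mice, against 29.4, 28.3, 27.5 and 31.5 CPM in the *Opa1*+/- mice. The groups overlapped (28.5 ± 1.07 against 29.2 ± 1.74 CPM, SD, n = 4 each), with a log2 fold change of 0.036 (SE 0.0619, 95% interval -0.10 to 0.17, edgeR adjusted p = 0.931). *Pgs1* (ENSMUSG00000017715.11) lies at chr11:117986292-118024011 on the plus strand, and 93 of its 5333 exonic bases (1.74%) overlap exons of *Dnah17* on the other strand.

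*Ptpmt1*, the phosphatase that yields phosphatidylglycerol, was the gene with the largest fold change of the 7 tested and did not pass the adjusted threshold. It had 14.4, 16.4, 16.5 and 15.2 CPM in WT mice 4, 5, 6 and 8, and 19.5, 17.1, 18.3 and 20.1 CPM in the *Opa1*+/- mice. The groups did not overlap, and the gap between the lowest *Opa1*+/- mouse and the highest WT mouse was 0.604 CPM. Each value rests on 253 to 341 counts. Means were 15.6 ± 0.993 and 18.7 ± 1.32 CPM (SD, n = 4 each), a log2 fold change of 0.26 (SE 0.0811, 95% interval 0.079 to 0.44), or a level 19.8% higher (interval 5.64 to 36.0%).

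The unadjusted edgeR p of *Ptpmt1* was 0.0098, and the adjusted p was 0.722 in edgeR and 0.689 in DESeq2. In each of 15 alternative settings the fold change was above 0, between 0.22 and 0.30 with adjusted p-values of 0.423 and above. The unadjusted p stayed under 0.05 in 14 of them, and was 0.0675 without both *Opa1*+/- mice that have 3-digit numbers.

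*Ptpmt1* (ENSMUSG00000063235.16) is on the minus strand at chr2:90908716-90918258, with 5 transcripts, and GENCODE vM21 gives the gene as a processed transcript. Of its 3684 exonic bases, 1657 (45.0%) are shared with exons of *Kbtbd4* on the opposite strand and 270 (7.33%) with the pseudogene *Gm17661*. *Kbtbd4*, which encodes a Kelch-repeat and BTB domain protein, had 16.8, 14.4, 20.0 and 17.3 CPM in the WT mice, against 15.2 to 18.3 CPM in the *Opa1*+/- mice. The groups overlapped (log2 fold change -0.034, 95% interval -0.28 to 0.21, edgeR adjusted p = 0.962). The share of *Ptpmt1* counts that came from the shared bases was not tested.

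The window before the *Ptpmt1* start is shown because this was the gene whose groups were apart. The RefSeq window (GRCm38.p6, minus strand, chr2:90918051-90918300) held none of CCGGAAG, GCGCATGC and CACGTG, so nothing is in capitals, and 208 of its 250 bases lie in an exon of a GENCODE transcript of *Ptpmt1* that starts farther upstream.
*Ptpmt1*: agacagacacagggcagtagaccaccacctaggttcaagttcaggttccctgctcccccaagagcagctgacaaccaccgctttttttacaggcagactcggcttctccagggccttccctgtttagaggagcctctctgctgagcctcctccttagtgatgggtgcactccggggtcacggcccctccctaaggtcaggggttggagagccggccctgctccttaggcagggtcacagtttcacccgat

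*Crls1*, cardiolipin synthase itself, differed less between group means than among WT mice. It had 19.5, 26.5, 14.0 and 17.1 CPM in WT mice 4, 5, 6 and 8, and 21.3, 19.8, 20.7 and 22.7 CPM in *Opa1*+/- mice. All *Opa1*+/- values lay within the WT range, and WT mouse 5 had 1.89 times the level of WT mouse 6. The coefficient of variation was 27.5% in WT (counting alone gives 5.45%) and 5.92% in *Opa1*+/- mice. In WT, 83.3% of the genes tested had a smaller coefficient of variation than *Crls1*, against 7.01% for *Prelid1*.

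Mean levels of *Crls1* were 19.3 ± 5.31 (WT) and 21.1 ± 1.25 CPM (*Opa1*+/-, SD, n = 4 each), with a log2 fold change of 0.13 (SE 0.167, 95% interval -0.25 to 0.50, edgeR adjusted p = 0.906). The value depended on single WT mice. It was 0.32 without WT mouse 5 (unadjusted p = 0.0240, adjusted p = 0.886, edgeR), 0.0031 without WT mouse 6 and 0.21 without both (adjusted p = 0.915), the last added once the values of these mice were known.

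Genes of adipocytes moved with *Crls1* among the WT mice. The list of 10 (*Adipoq*, *Fabp4*, *Plin1*, *Cidec*, *Cfd*, *Retn*, *Ucp1*, *Cidea*, *Elovl3* and *Cox8b*) was made after the *Crls1* values were seen. Their summed level was 446.5, 1081, 60.8 and 129.4 CPM in WT mice 4, 5, 6 and 8, a 17.8-fold range, and 946.6, 829.5, 645.2 and 960.5 CPM in *Opa1*+/- mice. The sum and *Crls1* both put the WT mice in the order 5, 4, 8 and 6 from high to low. Of the 8 cardiolipin genes only *Crls1* had that order. The share of all genes with it was not computed, so the match is a description only. Among *Opa1*+/- mice the order of the sum differed from that of *Crls1*. Among WT mice, 10 of 10 genes were highest in mouse 5 and 8 of 10 were lowest in mouse 6, and 1 gene, *Elovl3*, was at 0 in at least 1 mouse.

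*Ucp1*, the uncoupling protein that defines brown adipocytes, had 69.1, 191.8, 1.08 and 6.32 CPM in the WT mice, against 163.0, 174.2, 88.5 and 161.3 CPM in the *Opa1*+/- mice. *Fabp4*, a fatty acid carrier of adipocytes, had 213.5, 535.2, 22.3 and 67.6 CPM in the WT mice, against 469.6, 385.3, 322.4 and 503.0 CPM in the *Opa1*+/- mice. WT mice 4, 6 and 8 were thus below every *Opa1*+/- mouse for both genes and for the summed level, while WT mouse 5 was above every one. Of the 9 adipocyte genes tested, 9 had a fold change above 0 (median log2 0.84) and 0 passed the adjusted threshold in edgeR or DESeq2, with 1 (*Cox8b*) at an unadjusted edgeR p under 0.05. The part of adipocyte RNA in the *Crls1* values was not tested. For *Ptpmt1*, WT mice 5 and 6, with the most and the least adipocyte RNA, had 16.4 and 16.5 CPM, while the 2 *Opa1*+/- mice with the most adipocyte RNA (946.6 and 960.5 CPM) were also those with the most *Ptpmt1* (19.5 and 20.1 CPM). The part of adipocyte or erythroid RNA in the *Ptpmt1* values was not tested.

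**Figure D2:**
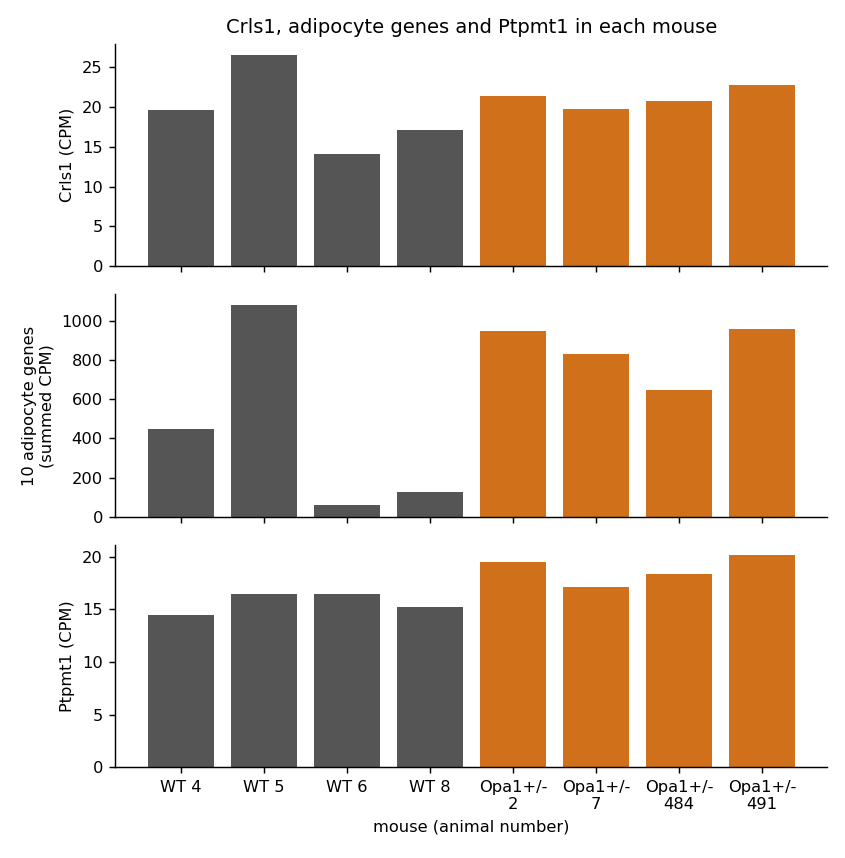
CPM of *Crls1* (top), summed CPM of 10 adipocyte genes (middle) and CPM of *Ptpmt1* (bottom) in each WT (grey) and *Opa1*+/- mouse (orange), 1 bar per mouse, with axes from 0. *Crls1* and the adipocyte genes are highest in WT mouse 5 and lowest in WT mouse 6, where *Ptpmt1* has 16.4 and 16.5 CPM, and the 2 *Opa1*+/- mice with the most adipocyte RNA have the most *Ptpmt1* (19.5 and 20.1 CPM).

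*Crls1* (ENSMUSG00000027357.16) lies on the plus strand at chr2:132846666-132866785, with 5 transcripts and 2082 exonic bases, of which 2 overlap the antisense gene *Gm14104*. Its window before the start is shown as that of the gene that varied most among WT mice of the 7 tested (RefSeq, GRCm38.p6, plus strand, chr2:132846416-132846665), with the E-box CACGTG at base 48 in capitals, and 112 of its bases lie in an exon of *Gm14104*.
*Crls1*: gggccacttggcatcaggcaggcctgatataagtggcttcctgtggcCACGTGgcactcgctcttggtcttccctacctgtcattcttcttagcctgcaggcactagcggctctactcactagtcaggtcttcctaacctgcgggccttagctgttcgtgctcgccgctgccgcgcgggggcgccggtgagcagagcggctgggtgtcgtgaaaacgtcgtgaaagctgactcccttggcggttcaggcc

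*Lclat1*, the acyltransferase, had 29.5, 29.6, 24.4 and 29.6 CPM in the WT mice, against 30.1, 27.8, 26.6 and 24.2 CPM in the *Opa1*+/- mice. The groups overlapped, and WT mouse 6 stood below the other WT mice. Means were 28.3 ± 2.56 and 27.2 ± 2.46 CPM (SD, n = 4 each), with a log2 fold change of -0.058 (SE 0.0885, 95% interval -0.26 to 0.14, edgeR adjusted p = 0.919). *Lclat1* (ENSMUSG00000054469.14) is on the plus strand at chr17:73107985-73243368, with 4894 exonic bases and no exon shared with another gene.

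*Pld6*, whose product is also known for its part in piRNA formation in germ cells, was barely detected and did not reach the minimum for testing. It had 0.17, 0.39, 0.36 and 0.15 CPM in the WT mice, against 0.24, 0.50, 0.43 and 0.38 CPM in the *Opa1*+/- mice, from 3 to 8 and 4 to 10 counts per mouse. Means of 0.267 ± 0.125 and 0.388 ± 0.112 CPM (SD, n = 4 each) overlapped in their mice (exact permutation p = 0.2, two-sided), and counting error alone gives coefficients of variation of 48.9 and 40.6%. *Pld6* (ENSMUSG00000043648.7) is on the minus strand at chr11:59783897-59787645, with 1757 exonic bases.

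The order of the genes was read per length, as CPM per kilobase of exons joined over all transcripts. *Prelid1* was highest, at 24.5 ± 1.07 (SD, n = 8 mice), and stood apart from *Triap1* at 10.8 ± 0.860, a ratio of 2.26. *Crls1* followed at 9.71 ± 1.78, and its range overlapped that of *Triap1*, which was higher in 6 of 8 mice. *Lclat1* (5.66 ± 0.490) and *Pgs1* (5.41 ± 0.261) also overlapped, as did *Pgs1* and *Ptpmt1* (4.66 ± 0.539), although *Pgs1* was the higher in 8 of 8 mice. *Crls1* was above *Lclat1* in every mouse, by a ratio of 1.71.

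*Tamm41* came next at 1.59 ± 0.162 CPM per kilobase, 2.94 times below *Ptpmt1* with no overlap, and *Pld6* last at 0.186 ± 0.0729. Thus the phosphatidic acid carrier had the highest level per length, and the enzyme that makes CDP-diacylglycerol had the lowest level of the 7 genes tested. These lengths include every annotated exon. A gene with many long transcripts, such as *Tamm41*, thus gets a lower value than its main transcript alone would give. They also include the bases that *Prelid1* shares with *Rab24* (46.1%) and *Ptpmt1* with *Kbtbd4* (45.0%). How reads there were counted is not known, which can shift the level of both genes in every mouse alike.

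**Figure D3:**
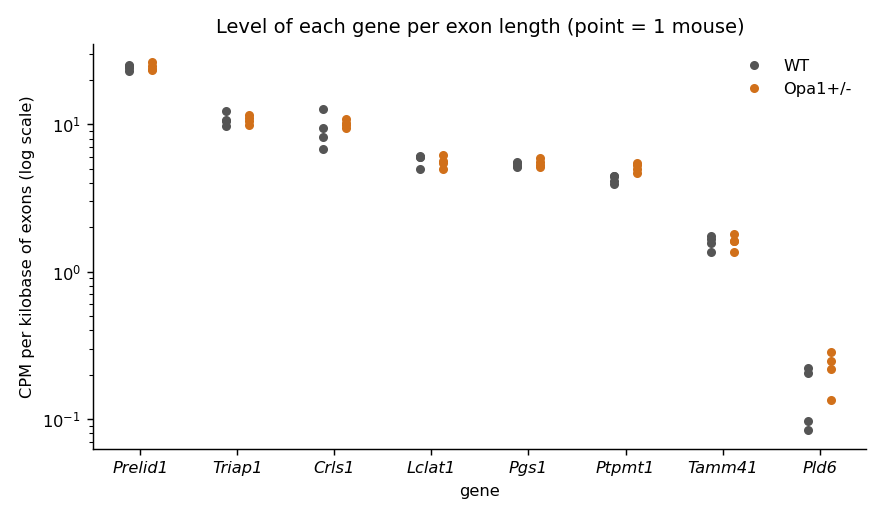
CPM per kilobase of exons (log scale) of the 8 genes, ordered by mean level, where each point is 1 WT (grey) or *Opa1*+/- mouse (orange). *Prelid1* lies above all others at 24.5, *Tamm41* is at 1.59 and *Pld6* at 0.186, and neighbours from *Lclat1* to *Ptpmt1* overlap.

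Another 22 genes of the pathway were listed by role, of which 20 were tested and 0 passed the adjusted threshold in edgeR or DESeq2. Fold changes were above 0 for 13 and below 0 for 7, with a median log2 value of 0.025 (9 above and 11 below with total counts). In 0 of the 20 were the groups apart in either direction. *Gpat2* and *Prelid2* were below the minimum, and *Prelid3a* and *Prelid3b* stand in the tables under the older symbols *Slmo1* and *Slmo2*.

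Genes that supply phosphatidic acid and CDP-diacylglycerol (*Cds1*, *Cds2*, *Gpam*, *Agpat5* and *Agk*) had 0 fold changes above 0 and 5 below. Their median was -0.036, and *Agk* stood at -2.2e-04. With total counts or DESeq2 size factors 5 were below 0 as well. Those scalings also lowered the median over all genes, to -0.028 and -0.0052, so they are no separate check of the split. The lowest p was that of *Cds2*, which makes CDP-diacylglycerol in the endoplasmic reticulum, with means of 186.5 ± 14.8 (WT) and 172.9 ± 11.7 CPM (*Opa1*+/-, SD, n = 4 each; log2 fold change -0.11, edgeR adjusted p = 0.802). Of the 6 remodelling genes, 5 were above 0 and 1 below, with a median of 0.021, a split that turned to 2 and 4 with total counts. Among them *Taz*, the tafazzin transacylase that is mutated in Barth syndrome, had a log2 fold change of 0.020 (edgeR adjusted p = 0.974). *Hadha* and *Hadhb*, subunits of the trifunctional protein, are named after their values were seen. *Hadhb* had 107.4, 184.5, 86.0 and 89.3 CPM in the WT mice, against 136.7, 154.3, 120.3 and 144.9 CPM in the *Opa1*+/- mice, with the WT mice in the same order as for *Crls1*. *Hadha* had 150.6, 187.5, 125.2 and 122.6 CPM in WT and 161.1, 171.6, 153.7 and 159.4 CPM in *Opa1*+/-, with the order of WT mice 6 and 8 exchanged. The supply gene *Gpam* also had the *Crls1* order in WT (30.6, 39.4, 26.5 and 29.6 CPM), with a log2 fold change of -0.036.

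Lipid transfer and externalisation genes had 4 fold changes above 0 and 1 below (median 0.069), and the genes of inner membrane lipid domains had 4 above and 0 below (median 0.095), or 3 and 1 with total counts. *Phb2*, the prohibitin 2 scaffold, was the only one of the 20 at an unadjusted p under 0.05 in edgeR. It had 48.1, 51.5, 47.8 and 41.6 CPM in the WT mice, against 51.4, 51.6, 51.7 and 57.7 CPM in the *Opa1*+/- mice, so WT mouse 5 lay between *Opa1*+/- mice. Its log2 fold change was 0.17 (SE 0.0743, 95% interval 0.0016 to 0.33, unadjusted p = 0.0482 and adjusted p = 0.736 in edgeR's fit across all genes). *Pisd*, which makes phosphatidylethanolamine in the same membrane, followed with 0.13 (unadjusted p = 0.0861 and adjusted p = 0.760 in edgeR's fit across all genes).

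**Figure D4:**
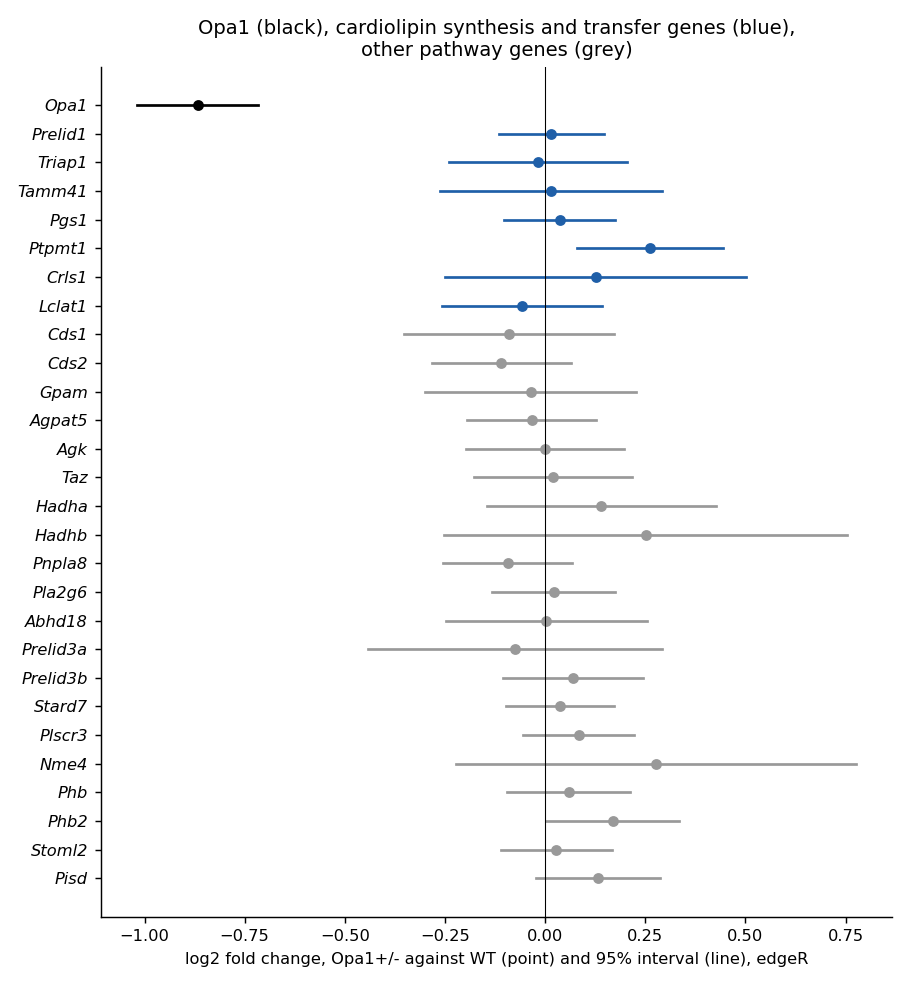
Log2 fold change of *Opa1*+/- against WT (point) with its 95% interval from edgeR (line) for *Opa1* (black), the 7 cardiolipin genes tested (blue) and the 20 other pathway genes tested (grey). *Opa1* lies at -0.87, apart from all others, and among the blue genes only the interval of *Ptpmt1*, 0.079 to 0.44, leaves out 0.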

How the data were processed

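RNA of 4 WT and 4 *Opa1*+/- cochleae was sequenced from CORALL libraries with paired reads. The authors removed adapters, mapped reads to GRCm38 with STAR, used molecular identifiers against amplification bias, and deposited raw counts per gene symbol for each mouse. The paper names the CORALL Data Analysis Pipeline. The counting program in it and its use of strand are not given in the sources used here. The 15 entries without a gene symbol (0.112 to 0.124% of counts per mouse) were left out.

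Library sizes were the counts on named genes with TMM factors (0.948 to 1.06) from edgeR 4.0.16 (R 4.3.3). Genes with a mean count over 10 after DESeq2 normalization entered edgeR's quasi-likelihood test, with p-values adjusted over all of them by Benjamini and Hochberg. SEs were derived from the F statistic and the fold change. Groups came from the labels, and the genotypes share no animal numbers, so no pairing was used. Replicates are separate mice. Counting coefficients of variation cover counting error only. Single values were compared by exact permutation tests (Python 3.11.15, scipy 1.17.1). The edgeR test was checked on simulated data.

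Alternatives were DESeq2 size factors, total counts, DESeq2 1.42.0, limma 3.58.1 voom with quality weights, 2 other filters, and mice left out. All cardiolipin genes are named, with the pathway genes at an unadjusted p under 0.05 and otherwise the 3 with the lowest p, and *Opa1*. *Taz*, *Hadha*, *Hadhb*, *Gpam*, the neighbouring genes and the adipocyte genes are named outside this rule, after their values were seen. The genes and lists were chosen with earlier results of these data known. Positions and exon lengths are from GENCODE vM21, promoter windows from RefSeq.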

Additional observations from a re-analysis of the deposited data

Results flagged for a closer look

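In 5 of 74 groups of 4 mice examined, 1 mouse stood far from the other 3 relative to the range of the group, by Dixon's test at its 95% level, which chance alone reaches in about 1 of 20 groups. *Lclat1* in WT mouse 6 was at 24.4 CPM, with the nearest WT mouse at 29.5 CPM. *Phb2* in the *Opa1*+/- mouse with the higher 3-digit number was at 57.7 CPM, with the nearest at 51.7 CPM. For *Ucp1* the lower of both 3-digit animal numbers among *Opa1*+/- mice had 88.5 CPM (nearest 161.3), and *Elovl3*, a fatty acid elongase of brown fat, was at 0.511 CPM in the mouse with the higher 3-digit number, above the other 3. The summed neutrophil and bone marrow genes of WT mouse 4 came to 1201 CPM, with the nearest WT mouse at 449.3 CPM.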

How the results depend on the processing

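In 15 alternative settings, 8 of them leaving out 1 mouse, 0 of the cardiolipin genes and 0 of the other pathway genes passed the adjusted threshold. Values close to 0 changed sign: with total counts *Prelid1* was at -0.013 and *Tamm41* at -0.016, and with limma voom *Triap1* was at 0.0025. Without both *Opa1*+/- mice with 3-digit numbers, *Prelid1* was at -0.049, *Tamm41* at -0.093, *Lclat1* at 0.032 and *Opa1* at -0.86 (adjusted p = 0.260), and 0 cardiolipin genes had an unadjusted p under 0.05.

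With 1 mouse left out, log2 fold changes ranged from -0.90 to -0.83 for *Opa1* (adjusted p up to 0.0704, without *Opa1*+/- mouse 2), -0.022 to 0.038 for *Prelid1*, -0.065 to 0.049 for *Triap1*, -0.054 to 0.086 for *Tamm41*, -0.0058 to 0.066 for *Pgs1*, 0.22 to 0.30 for *Ptpmt1*, 0.0031 to 0.32 for *Crls1* and -0.12 to -0.0098 for *Lclat1*. Their median ranged from -0.0058 to 0.051, and the *Prelid1* and *Triap1* correlation from -0.73 to -0.37, against -0.12 with total counts. Between 1 and 2 genes had an unadjusted p under 0.05, with 2 (*Ptpmt1* and *Crls1*) without WT mouse 5. The causes were not tested. Counting error was largest for *Pld6*, at 3 to 10 counts, *Tamm41* and *Triap1*, with coefficients of variation of 48.9, 8.04 and 6.76% in WT.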
